A study of Mus musculus with 16 samples.

Results

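A set of 7 transcripts of the platelet lineage, among 49315 genes counted, was followed through neutrophil RNA: Ppbp, Pf4, Gp9, Gp1bb, Itga2b, Treml1 and Tubb1. They were chosen by name as platelet genes, and all 7 were found by Ensembl identifier in each of the 24 count files. The RNA came from cells sorted as Ly6G+, CD11b+ and CD45.2+ from the blood and the lung of male mice 8 to 12 weeks old. WT mice and αD KO mice, which carry a whole-body knockout of integrin αD (CD11d, encoded by Itgad), were taken without treatment (0h) or 12 hours after cecal ligation and puncture (CLP), an operation that opens the gut and causes sepsis. Each of the 8 groups has 2 samples and 3 files, named here libraries 1a and 1b (both of sample 1) and library 2. The labels do not say whether 1a and 1b came from separate animals. Their counts differed beyond counting noise in every group (chi-square divided by its degrees of freedom, 63.5 or more), which separate preparations of the same RNA would show too. Each file entered as a library, and the sum of both files, with 2 per group, is given as an alternative.

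Platelets are anucleate fragments of megakaryocytes that carry RNA from the parent cell. They bind to neutrophils through P-selectin, so a gate on neutrophil surface markers can retain neutrophils with platelets attached, and loose platelets can accompany any sort. In bulk RNA, a greater number of platelets and more RNA per platelet cannot be told apart. Ppbp and Pf4 encode chemokines of the α-granules. Gp9 and Gp1bb encode subunits of the receptor for von Willebrand factor, and Itga2b encodes the α-subunit of the fibrinogen receptor. Treml1 encodes a receptor held in α-granules, and Tubb1 the β-tubulin of the platelet's marginal band.

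Total counts were between 5753476 and 29984954 per library. In each group library 1b had the lowest total counts and the most genes with counts. In WT blood at 0h, 17132, 38499 and 27484 genes had counts in libraries 1a, 1b and 2, and in αD KO blood at 0h 27602, 38184 and 19769. The part of this in the results below was not tested. The neutrophil markers were present in all 24 libraries, with Ly6g at 18.6 to 468 CPM (the count of a gene per total count, put on one scale by TMM factors) and S100a8 at 8910 to 97900 CPM. S100a9 was at 9460 to 74400 CPM, Csf3r at 887 to 13800 CPM and Cxcr2 at 1140 to 4980 CPM. Itgad went against what a knockout label would lead to. Its range was 12.5 to 102 CPM over the 12 libraries with the label αD KO and 0.0583 to 3.67 CPM over the 12 with the label WT, without overlap. Counts per gene do not show which exons were read. The names of the groups below follow the labels, and so does each direction by genotype. Of the lung libraries, 3 labelled αD KO lay away from their time label along the 1339 genes that separate WT lung at 12 hours from WT lung at 0h, on a scale where the WT groups average 0 and 1. The αD KO 0h library 2 lay at 1.03, and the 12-hour libraries 1a and 2 lay at 0.0996 and 0.188.

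Ppbp and Pf4 lie side by side on chromosome 5 (GRCm38), with Ppbp at chr5:90768518-90770063 and Pf4 at chr5:90772435-90773383, both on the plus strand and 2372 bases apart. Gp9 lies at chr6:87778072-87779768 on the plus strand. Treml1 lies at chr17:48359916-48367174 and Tubb1 at chr2:174450695-174457882, both on the plus strand. Gp1bb lies at chr16:18620319-18622403 and Itga2b at chr11:102453297-102470122, both on the minus strand. Gp1bb overlaps Sept5 on the same strand, and Sept5 was at up to 44.1 CPM, so reads of that stretch may be shared and the level of Gp1bb is uncertain. The 250 bases before the RefSeq start (GRCm38.p6) are shown for the chemokine pair and for Gp9. The pair had the highest levels per length, and Gp9 was the one with the letters GATAA or TTATC. Each is written 5′ to 3′ on the gene's strand, and capitals mark the GATA core GATAA or its complement TTATC and the ETS core GGAAG or its complement CTTCC, motifs of factor families known in megakaryocytes.
Ppbp, chr5:90768268-90768517, plus strand: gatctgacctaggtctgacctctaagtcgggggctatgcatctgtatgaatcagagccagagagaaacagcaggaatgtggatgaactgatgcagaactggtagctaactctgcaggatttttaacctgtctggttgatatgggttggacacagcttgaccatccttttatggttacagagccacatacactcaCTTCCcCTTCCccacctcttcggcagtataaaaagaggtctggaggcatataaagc
Pf4, chr5:90772185-90772434, plus strand: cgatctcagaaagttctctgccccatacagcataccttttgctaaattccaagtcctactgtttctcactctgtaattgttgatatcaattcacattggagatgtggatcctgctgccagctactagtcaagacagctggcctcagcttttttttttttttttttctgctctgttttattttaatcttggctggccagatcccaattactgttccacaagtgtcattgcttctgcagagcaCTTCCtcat
Gp9, chr6:87777820-87778069, plus strand: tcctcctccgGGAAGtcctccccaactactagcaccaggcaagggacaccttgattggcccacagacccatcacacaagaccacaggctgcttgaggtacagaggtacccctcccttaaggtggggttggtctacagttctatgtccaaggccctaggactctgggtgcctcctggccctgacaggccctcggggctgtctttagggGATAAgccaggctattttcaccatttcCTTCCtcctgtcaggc
RefSeq promoters matched all 7 genes. The ETS core was found in 7 of 7 windows and in 64.1% of the 32851 windows of the same length in the table. The GATA core in the form GATAA or TTATC was found in 1 of 7, 43 bases before the start of Gp9, and in 22.6% of all windows. GATA with another base after it, as in the Ppbp and Pf4 windows, was not counted. Both cores together were in 1 of 7 and in 13.2% of all windows. The 2 motifs share no letters where they were found.

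By group median the 7 transcripts were highest in blood at 0h, and 2 of the 3 αD KO blood libraries at 0h stood above the other 22 libraries for each of the 7. Of the 27145 genes tested, 0.752% had this pattern, and the 2 libraries were picked because they were the highest for the 7. Values below are given in the order of libraries 1a, 1b and 2. Ppbp, whose product is cleaved to chemokines that attract neutrophils, was at 33.9, 13.7 and 26.8 CPM in WT blood at 0h. In αD KO blood at 0h it was at 196, 7.06 and 254 CPM, from 4664, 100 and 6858 counts. Libraries 1a and 2 were thus at least 5.79 times the highest of the other 22, whereas library 1b was below all 3 WT libraries. At 12 hours after CLP, Ppbp was at 7.70, 1.51 and 1.18 CPM in WT blood and at 11.6, 1.16 and 13.7 CPM in αD KO blood. The 12-hour WT values were all below those of WT blood at 0h, and in αD KO the groups overlapped. In lung, Ppbp was at 3.79, 7.08 and 3.20 CPM in WT and at 5.54, 4.32 and 1.61 CPM in αD KO at 0h. At 12 hours it was at 3.24, 1.04 and 4.07 CPM in WT lung and at 14.6, 0.688 and 2.57 CPM in αD KO lung. In 11 of the 12 lung libraries it was at most 7.08 CPM, and the exception was αD KO 12-hour library 1a, one of the 3 away from their time label.

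Pf4 encodes platelet factor 4, which binds heparin. It was at 24.2, 10.2 and 24.9 CPM in WT blood at 0h and at 150, 7.20 and 159 CPM in αD KO blood at 0h. By 12 hours it was at 10.5, 2.56 and 1.18 CPM in WT blood and at 10.9, 2.15 and 12.4 CPM in αD KO blood. The WT groups overlapped in this gene, by library 1a at 12 hours and library 1b at 0h, though not when scaled to total counts alone. In lung, Pf4 was at 2.55, 6.51 and 2.15 CPM in WT and at 4.12, 5.51 and 2.41 CPM in αD KO at 0h. At 12 hours it was at 10.4, 4.73 and 5.29 CPM in WT lung and at 14.5, 0.895 and 1.86 CPM in αD KO lung. The 4 lung groups overlapped, with the highest value again in αD KO 12-hour library 1a.

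**Figure D1:**
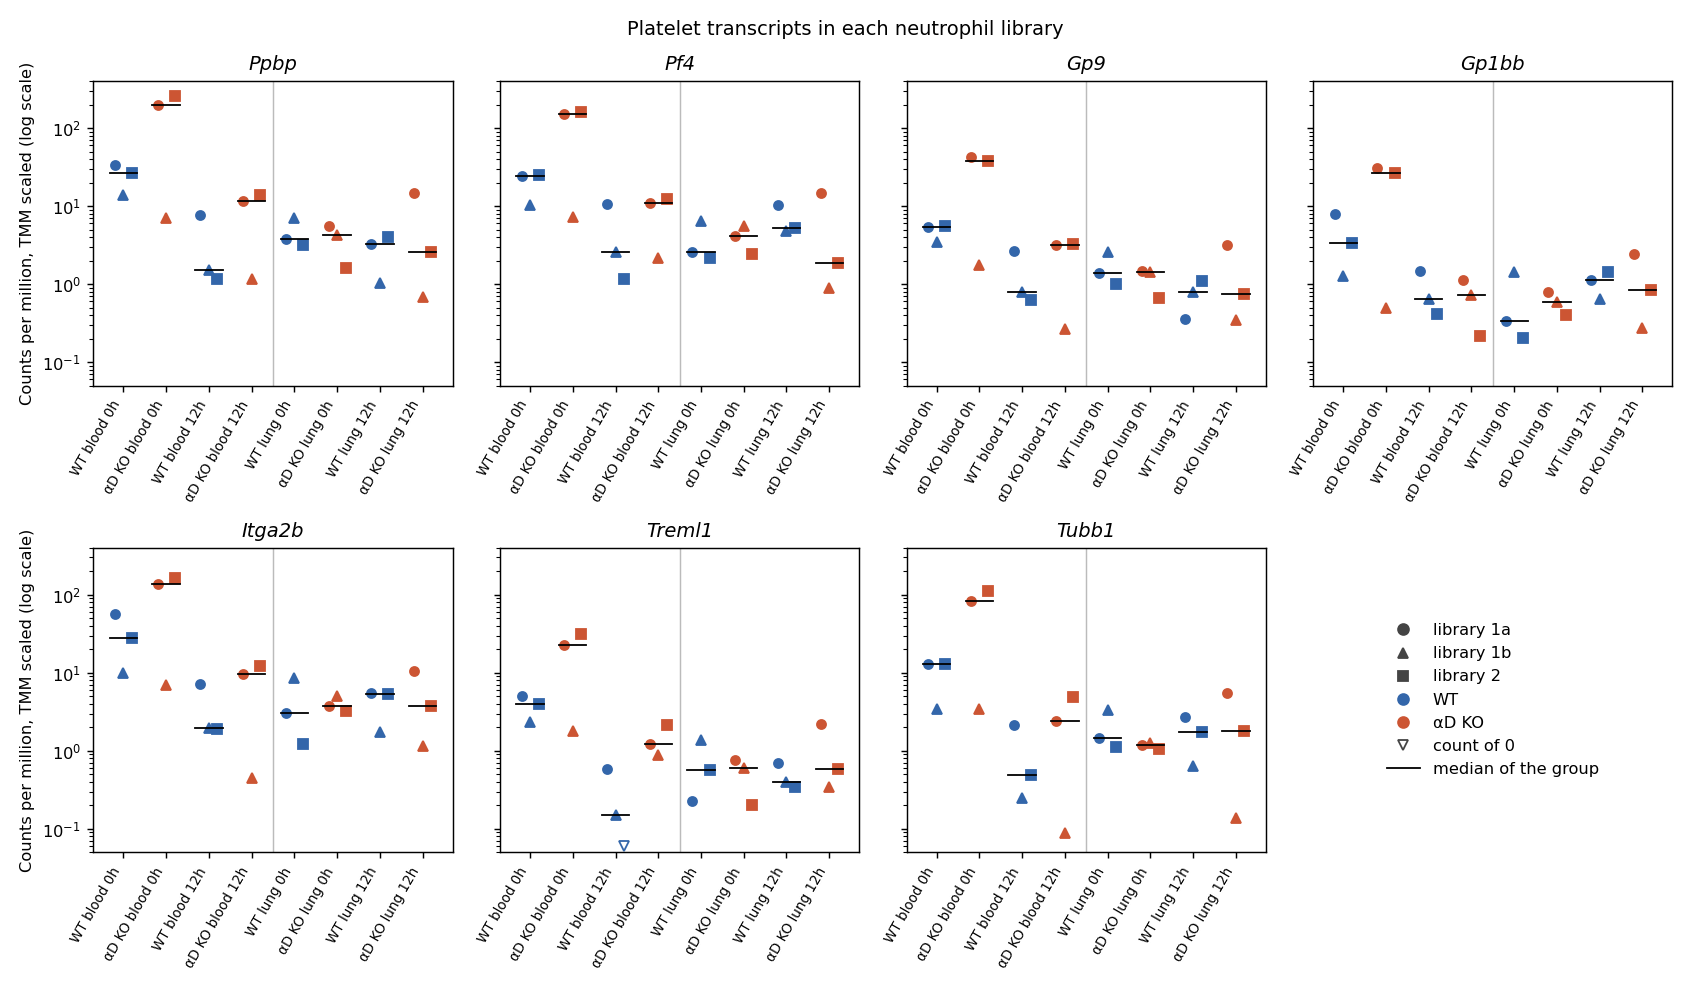
Level in CPM (TMM-scaled, log axis) of the 7 platelet transcripts in each of the 24 libraries, 1 panel per gene, grouped by genotype, tissue and time. Each point is a library (circle 1a, triangle 1b, square 2), and αD KO blood libraries 1a and 2 at 0h lie above every other point in all 7 panels.

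The receptor subunits had lower counts. Gp9 was at 5.45, 3.44 and 5.48 CPM in WT blood at 0h and at 42.9, 1.77 and 37.7 CPM in αD KO blood at 0h. The 12-hour values were 2.63, 0.804 and 0.627 CPM in WT blood and 3.21, 0.269 and 3.22 CPM in αD KO blood. In lung it was between 0.344 and 3.15 CPM over the 12 libraries. Gp1bb was at 8.02, 1.27 and 3.41 CPM in WT blood at 0h and at 30.9, 0.494 and 26.3 CPM in αD KO blood at 0h. At 12 hours it was at 1.46, 0.653 and 0.418 CPM in WT blood and at 1.14, 0.717 and 0.214 CPM in αD KO blood. In lung its range was 0.203 to 2.43 CPM. These 2 genes, whose proteins assemble in the same complex, shared the pattern of the chemokines, with library 1b of αD KO blood at 0h below every WT library of that tissue and time.

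Itga2b was at 56.0, 10 and 27.8 CPM in WT blood at 0h and at 138, 7.06 and 164 CPM in αD KO blood at 0h. After CLP it was at 7.23, 1.96 and 1.88 CPM in WT blood and at 9.71, 0.448 and 12.3 CPM in αD KO blood. The WT values at 12 hours were all below those at 0h, and in αD KO libraries 1a and 2 at 12 hours were above library 1b at 0h. In lung Itga2b was at 3.04, 8.57 and 1.22 CPM in WT and at 3.79, 5.06 and 3.28 CPM in αD KO at 0h. At 12 hours it was at 5.50, 1.76 and 5.41 CPM in WT lung and at 10.5, 1.17 and 3.80 CPM in αD KO lung. The lung groups overlapped each other in this gene.

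Treml1 was at 5.08, 2.35 and 3.96 CPM in WT blood at 0h and at 22.8, 1.77 and 31.4 CPM in αD KO blood at 0h. After CLP it was at 0.583 and 0.151 CPM in WT blood libraries 1a and 1b. Library 2 of that group had 0 counts, which allows up to 0.209 CPM (3 counts, for counting error only), the one 0 among the 168 values. In αD KO blood at 12 hours Treml1 was at 1.21, 0.896 and 2.14 CPM, all above the WT values. In lung it was between 0.201 and 2.21 CPM. Tubb1 was at 12.9, 3.44 and 12.8 CPM in WT blood at 0h and at 82.3, 3.46 and 112 CPM in αD KO blood at 0h. By 12 hours it was at 2.16, 0.251 and 0.487 CPM in WT blood and at 2.43, 0.0896 and 4.86 CPM in αD KO blood. In lung its range was 0.138 to 5.47 CPM.

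The low place of library 1b in blood at 0h depended in part on the scaling. The TMM factors of the 1b libraries were 1.93 in WT and 1.60 in αD KO blood at 0h. In CPM without TMM factors, scaled to total counts alone, Ppbp was at 31.7, 26.2 and 28.0 and Pf4 at 22.7, 19.6 and 26.0 in WT blood at 0h, so the 3 WT libraries lay closer for these 2 genes. Library 1b stayed the lowest of the 3 for Itga2b (52.4, 19.3 and 29.0 CPM), Gp1bb (7.51, 2.43 and 3.57 CPM) and Tubb1 (12.0, 6.60 and 13.3 CPM), and was the highest for Gp9 (5.10, 6.60 and 5.72 CPM). In αD KO blood at 0h, library 1b stayed apart from 1a and 2, with Ppbp at 11.3 CPM on that scale. Its overlap with the 12-hour libraries ended there for every transcript but Gp1bb. Pf4 in WT blood was at 19.6 to 26.0 CPM at 0h and at 0.883 to 6.91 CPM at 12 hours on that scale.

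Summed over the 7 genes, the level was 145, 44.5 and 105 CPM in WT blood and 663, 28.8 and 785 CPM in αD KO blood at 0h. This was between 0.000431% and 0.0911% of all counts over the 24 libraries. Ordered by the group median, αD KO blood at 0h (663 CPM) was followed by WT blood at 0h (105 CPM), αD KO blood at 12 hours (40.3 CPM) and WT lung at 12 hours (19.4 CPM). The lower places were taken by αD KO lung at 0h (17.7 CPM), WT lung at 0h (12.8 CPM), αD KO lung at 12 hours (12.2 CPM) and WT blood at 12 hours (7.89 CPM). None of the 7 pairs of neighbours in this order was separated, since each pair overlapped. The same held for Ppbp, Pf4, Gp1bb, Itga2b and Tubb1, while 1 pair of neighbours was separated for Gp9 and 2 for Treml1. Under total-count scaling 1 pair was separated for the sum and for each of the 7. For the sum this was WT blood at 0h (85.2 to 136 CPM) above αD KO blood at 12 hours (5.09 to 39.6 CPM). Per kilobase of exon, the median level over the 24 libraries was 8.33 CPM per kb for Pf4, 4.55 for Ppbp and 1.64 for Gp9. It was 1.41 CPM per kb for Tubb1, 1.0 for Itga2b, 0.586 for Treml1 and 0.435 for Gp1bb.

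The first comparison asked what changed 12 hours after CLP. Averaged over both tissues and genotypes, 5 of the 7 transcripts fell in edgeR's quasi-likelihood test on all 24 libraries (Benjamini-Hochberg adjusted p under 0.05 and a log2 fold change beyond 1), in which 7.72% of the 27145 genes tested were called in either direction. Ppbp changed by a log2 fold change of −1.76 ± 0.53 (SE, adjusted p = 0.0348) and Gp9 by −1.58 ± 0.48 (adjusted p = 0.0344). Itga2b changed by −1.63 ± 0.52 (adjusted p = 0.0445), Treml1 by −1.80 ± 0.50 (adjusted p = 0.0223) and Tubb1 by −1.79 ± 0.56 (adjusted p = 0.0423). Gp1bb, at −1.36 ± 0.53 (adjusted p = 0.109), and Pf4, at −1.07 ± 0.49 (adjusted p = 0.193), did not pass. The median of all genes tested was −0.513 in the same contrast. Under total-count scaling that median was −1.056, and the 7 transcripts were all called, at −2.33 to −1.60, beside 10.7% of all genes. Of all called genes, 52.7% were higher at 12 hours under TMM and 17.9% under total-count scaling. DESeq2 called 7 of the 7 (11% of all genes), voom with quality weights 6 (17.3%) and edgeR with the library number as a replicate block 7 (10.6%). Without αD KO blood libraries 1a and 2 at 0h, none of the 7 was called by edgeR and the values were −0.93 to −0.03, whereas the median of all genes was −0.718. Leaving out 1 library at a time gave 0 to 6 called. It was 0 without αD KO blood 0h library 2 or WT lung 0h library 1b, and 1 without any one of WT blood 0h library 2, αD KO blood 0h library 1a, WT blood 12-hour libraries 1b and 2, αD KO lung 0h libraries 1a and 1b, and αD KO lung 12-hour libraries 1b and 2. It was 2 without WT lung 12-hour library 1a and 3 without WT blood 0h library 1a, αD KO blood 12-hour library 1a or WT lung 12-hour library 2.

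Within WT blood, all 7 transcripts had lower fitted levels at 12 hours and 3 were called, beside 13.5% of all genes. Itga2b changed by −3.28 ± 0.71 (edgeR, adjusted p = 0.0236), Ppbp by −3.06 ± 0.70 (adjusted p = 0.0277) and Tubb1 by −3.54 ± 0.84 (adjusted p = 0.0319). The other 4 had log2 fold changes of −4.11 (Treml1) to −2.04 (Gp9) with adjusted p from 0.0517 to 0.0881. The 0h and 12-hour libraries did not overlap for 5 of the 7, all lower at 12 hours, and for 34.7% of all genes in either direction. Scaled to total counts alone, they did not overlap for 7 of the 7 and for 39.9% of all genes. DESeq2 called 7 of 7 (22.8% of all genes), voom 7 (24.7%), and edgeR with the library number as a replicate block 6 (18.4%). Leaving out any single library but WT blood 0h library 1b left none called by edgeR, and without that one 5 were called. Of all called genes, 57.4% were higher at 12 hours, and 31.8% under total-count scaling, where 6 of the 7 were called lower beside 14.7% of all genes called.

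Within αD KO blood, 2 of the 7 were called lower at 12 hours, beside 8.75% of all genes. Treml1 changed by −3.84 ± 0.89 (edgeR, adjusted p = 0.0366) and Gp1bb by −4.88 ± 1.25 (adjusted p = 0.0493). The log2 fold changes of the other 5 were −4.89 (Tubb1) to −3.76 (Gp9), with adjusted p of 0.0518 to 0.0738. None of the 7 was without overlap between the times, as library 1b at 0h lay among the 12-hour values, and 32.2% of all genes were without overlap. Under total-count scaling this turned, with 6 of the 7 lower at 12 hours without overlap (all but Gp1bb), beside 36.2% of all genes. The paired fit with the replicate block called 6 (10.7% of all genes), DESeq2 7 (12.3%) and voom 3 (23%). Without libraries 1a and 2 at 0h, the values were −0.57 to 0.41, with library 1b alone at 0h. Without library 1b at 0h instead, all 7 were called, and without any one of the other 5 libraries none was.

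In lung, no transcript was called in edgeR between the times. The WT values were −1.15 (Gp9) to 0.77 (Pf4), none with an unadjusted p under 0.05, beside 9.02% of all genes called. The times overlapped for each of the 7, but under total-count scaling Ppbp and Gp9 were lower at 12 hours without overlap, as were 40.3% of all genes in either direction. DESeq2 called none of them and voom 2, both higher (35.1% of all genes). The αD KO values were 0.21 to 1.00, again with none at an unadjusted p under 0.05, and 0% of all genes were called. DESeq2 and voom called none of the 7 there. Without the 3 αD KO lung libraries away from their time label, which leaves 2 libraries at 0h and 1 at 12 hours, all 7 turned to −3.00 to −0.89, with none called, 2 at an unadjusted p under 0.05 and 1.41% of all genes called. That fit takes the lone library to vary like the others.

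**Figure D2:**
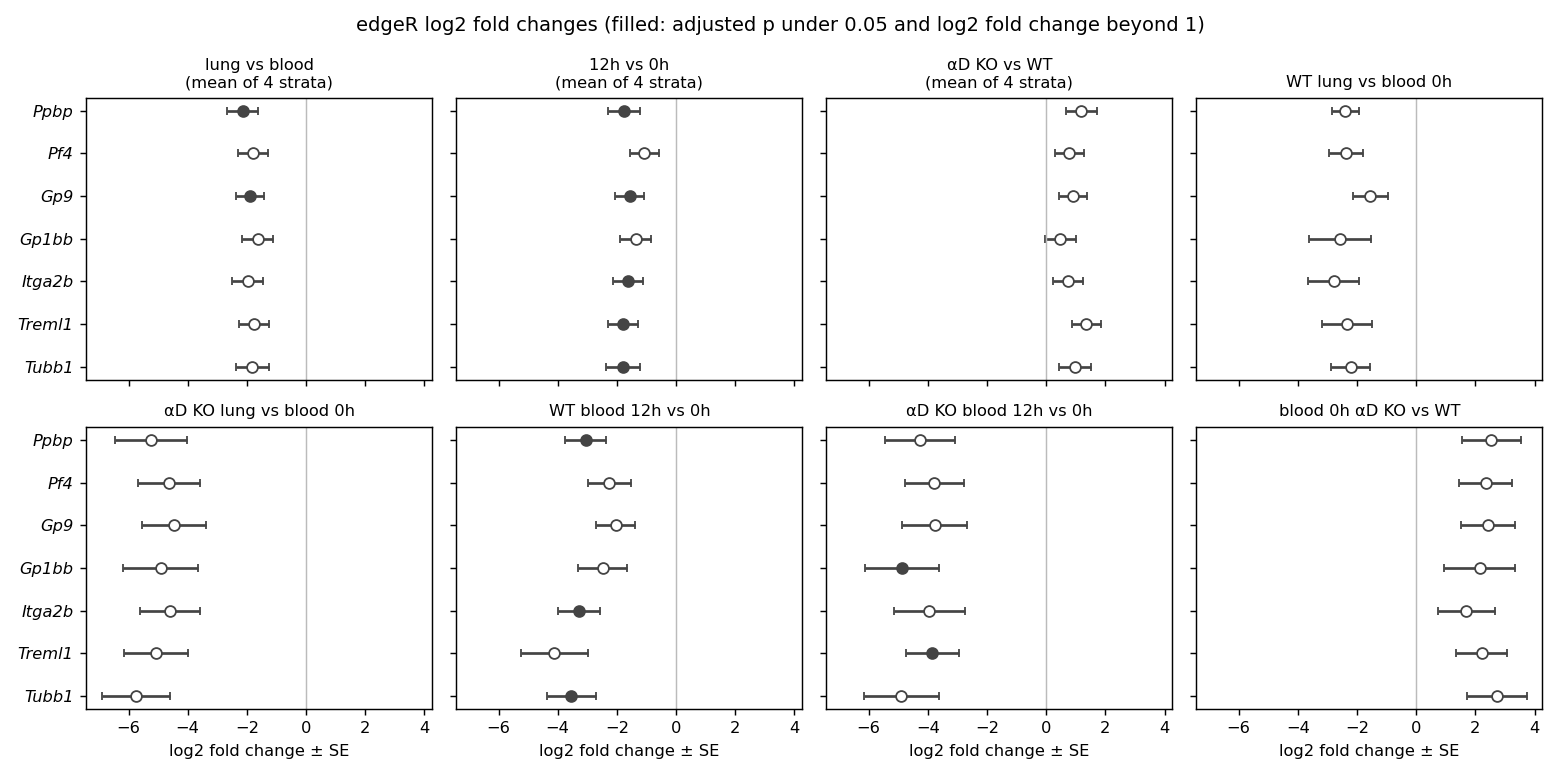
Log2 fold changes of the 7 platelet transcripts (horizontal axis) in 8 comparisons of tissue, time and genotype, 1 panel each, with bars of 1 standard error (edgeR, TMM) and filled points where called. At 12 hours against 0h the values of blood lie between −4.11 and −2.04 in WT and between −4.89 and −3.76 in αD KO, all below 0.

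Whether the change after CLP differed between the tissues was tested as an interaction. The change in lung exceeded that in blood by a log2 value of 2.28 (Gp9) to 4.47 (Tubb1). All 7 had an unadjusted p under 0.05 in edgeR, as did 9.78% of all genes, and none passed after adjustment over all genes (adjusted p = 0.216 to 0.433), where 0% of all genes were called and the median of all genes was 0.605. DESeq2 called 6 (4.33% of all genes) and voom 7 (10.1%). Without αD KO blood libraries 1a and 2 at 0h the interaction was 0.27 to 2.32, and no transcript had an unadjusted p under 0.05. Leaving out the 3 αD KO lung libraries away from their time label gave 1.28 to 3.34, with 4 of 7 at an unadjusted p under 0.05 and none called. Neither the change by genotype in the tissues (−2.17 to −0.94, 1 at an unadjusted p under 0.05) nor that in the times (−1.11 to 0.89, none) was called for any of the 7 by edgeR, DESeq2 or voom, beside 0% of all genes in edgeR for each. Without αD KO blood libraries 1a and 2 at 0h the difference by tissue was −0.36 to 1.72 and that by time 1.00 to 2.61, none at an unadjusted p under 0.05. Without the 3 αD KO lung libraries they were −4.18 to −1.89 (4 at an unadjusted p under 0.05) and −2.28 to 0.01 (1).

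The second comparison asked how lung differs from blood. Averaged over genotype and time, 2 of the 7 were lower in lung, beside 1.6% of all genes. Ppbp changed by −2.15 ± 0.54 (edgeR, adjusted p = 0.0421) and Gp9 by −1.89 ± 0.48 (adjusted p = 0.0454). The other 5 were at −1.97 (Itga2b) to −1.64 (Gp1bb) with adjusted p of 0.0568 to 0.138, and the median of all genes was 0.190. DESeq2 called 7 (4.31% of all genes), voom 6 (11.5%) and edgeR with the replicate block 4 (3.3%). Without αD KO blood libraries 1a and 2 at 0h the values were −1.03 to −0.31. Without the 3 αD KO lung libraries away from their time label they were −2.68 to −1.91. Each of these fits leaves 1 library in a group. Leaving out 1 library at a time gave 7 called without αD KO blood 0h library 1b, 4 without αD KO lung 12-hour library 1a, 3 without αD KO blood 12-hour library 1b and 2 without WT blood 0h library 1b. It gave 1 without WT blood 12-hour library 1b or 2 or WT lung 0h library 1b, and none without any one of the other 17.

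At 0h the difference in WT was −2.79 (Itga2b) to −1.55 (Gp9), and each of the 7 had an unadjusted p under 0.05 in edgeR. None passed the adjustment (adjusted p = 0.999), and 0% of all genes did. DESeq2 called 2 (0.317% of all genes) and voom 3 (0.1%). The WT blood and lung libraries at 0h did not overlap for 6 of the 7, all lower in lung, and for 5.72% of all genes in either direction (7 of the 7 and 8.35% under total-count scaling). In αD KO at 0h the difference was −5.75 (Tubb1) to −4.46 (Gp9), again with 7 of 7 at an unadjusted p under 0.05, none called, and 0% of all genes called. DESeq2 called 7 there (0.639% of all genes) and voom none. The αD KO libraries did not overlap for 6 of the 7, all lower in lung (6.61% of all genes in either direction), and again for 6 under total-count scaling (8.87%). Without αD KO blood libraries 1a and 2 the differences were −1.65 to 0.38. Other lists were lower in αD KO lung at 0h too, with none of their genes called, by a median of −3.26 for T and NK cell genes (4 of 7 at an unadjusted p under 0.05), −2.56 for B cell genes (2 of 6) and −2.08 for erythroid genes (6 of 10), beside −4.92 for the 7 transcripts. Lung epithelial and endothelial genes had a median of 3.42 (6 of 10). The WT medians at 0h were −0.47 for T and NK cell genes (none of 7), 0.17 for B cell genes (none of 6) and −2.53 for erythroid genes (2 of 10), beside −2.36 for the 7. Their part in the tissue differences was not tested. At 12 hours the tissues differed by −0.65 to 0.88 in WT (6 tested, since Treml1 did not pass the filter on low counts) and by −0.50 to 0.88 in αD KO, with none called by edgeR, DESeq2 or voom and none at an unadjusted p under 0.05. Of all genes, edgeR called 0.0442% and 0.0548% there, and these shares do not hold for DESeq2 or voom. Without the 3 αD KO lung libraries away from their time label, the αD KO values at 12 hours were −3.93 to −1.18, from 1 lung library, with none called and 2 at an unadjusted p under 0.05.

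The third comparison asked whether genotype mattered. Averaged over tissue and time, none of the 7 was called in edgeR, with 0.48 (Gp1bb) to 1.35 (Treml1) for αD KO against WT, 2 at an unadjusted p under 0.05 (Ppbp and Treml1) and 0.0442% of all genes called. DESeq2 called none, and voom called 5 higher, beside 15.2% of all genes. The averaged values without αD KO blood libraries 1a and 2 at 0h were −0.85 to 0.50, below 0 for 5 of the 7 and none at an unadjusted p under 0.05. In blood at 0h the values were 1.69 (Itga2b) to 2.72 (Tubb1), with 5 at an unadjusted p under 0.05, none called, and 0.0115% of all genes called. Without αD KO libraries 1a and 2 the values of blood at 0h turned to −2.89 to −0.95. These 2 were left out because they were the highest, which leaves αD KO library 1b alone, taken to vary like the others, and the same holds wherever they were left out. Markers of other cells were also higher in αD KO blood at 0h by the median of their lists, with none called. The median log2 fold change was 2.53 for T and NK cell genes (none of 7 at an unadjusted p under 0.05), 1.82 for B cell genes (none of 6), 1.38 for erythroid genes (2 of 10) and 1.33 for monocyte and macrophage genes (2 of 12), beside 2.35 for the 7 transcripts. Averaged over tissue and time, the erythroid median was 1.45 with 9 of 11 genes at an unadjusted p under 0.05, none called, beside 0.92 for the 7. The part of these cells in the genotype values was not tested. In lung at 0h the values were −0.78 to 0.11, in blood at 12 hours −0.27 to 2.48 and in lung at 12 hours −0.09 to 1.29 (6 tested). In each, 0% of all genes were called by edgeR, a share that does not stand for the other tools. With αD KO lung 12-hour library 1b as the one lung library left at that time, after leaving out those away from their time label, the values of lung at 12 hours turned to −3.21 to −0.85 (none at an unadjusted p under 0.05), and those of lung at 0h were −0.64 to 0.41. Treml1 in blood at 12 hours was the one of these at an unadjusted p under 0.05 in edgeR (4.01% of all genes), and its libraries did not overlap between the genotypes (7.93% of all genes, and 9.71% under total-count scaling, where it was again the one of the 7), and no transcript was called in the 3 comparisons by DESeq2 or voom.

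**Figure D3:**
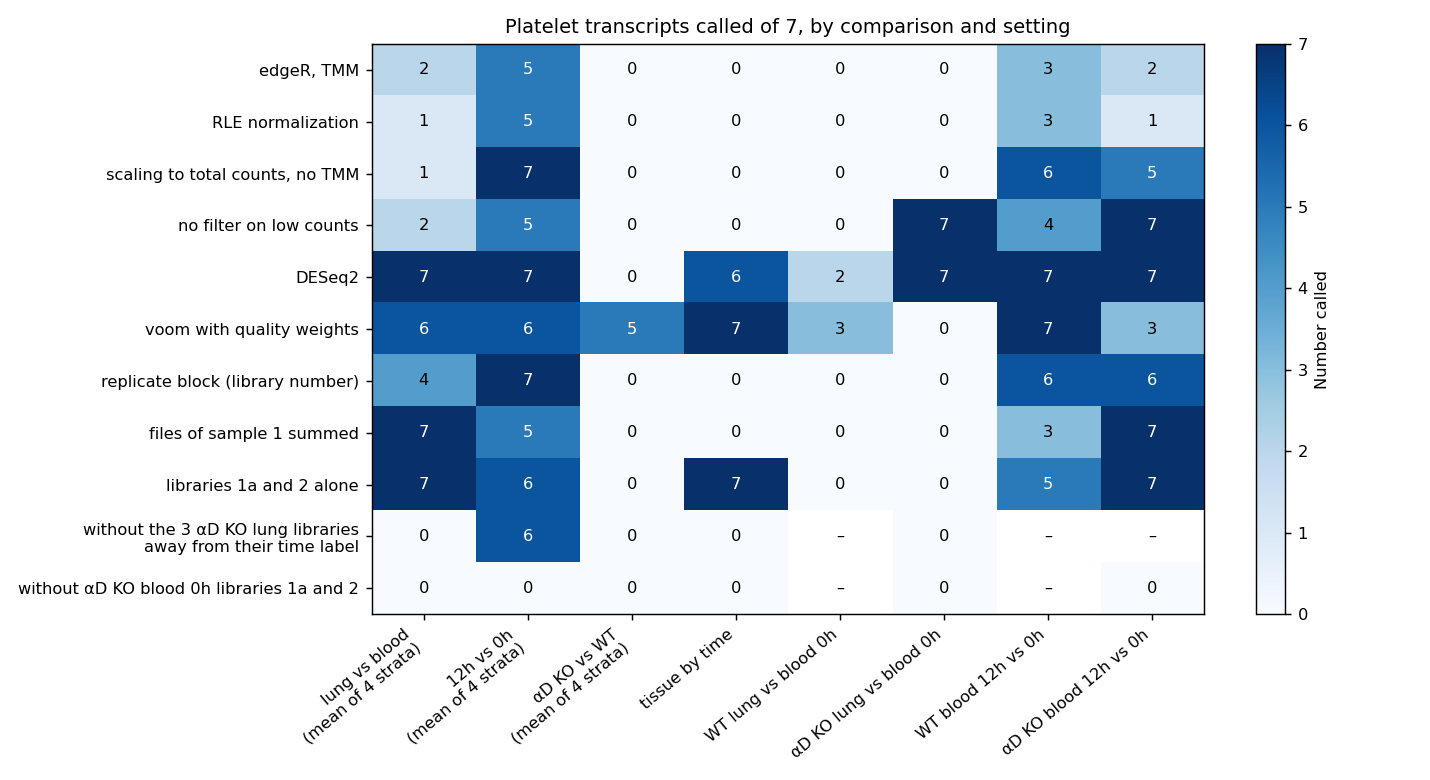
Number of the 7 platelet transcripts called (figure in each cell, darker for more) under 11 ways of processing (rows) in 8 comparisons (columns), with a dash where a setting left the libraries as they were. The counts go from 0 to 7 between settings for lung against blood and for αD KO blood at 12 hours against 0h, and the last row, without αD KO blood libraries 1a and 2 at 0h, holds 0 wherever it was run.

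The share of Pf4 in the summed counts of Pf4 and Ppbp does not depend on the scaling between libraries. It was 38.5% to 50.5% in the 6 blood libraries at 0h, including the 2 highest at 43.4% (95% exact binomial interval 42.3 to 44.5) and 38.5% (37.6 to 39.4). These intervals cover counting error only. In WT lung the share was 40.2%, 47.9% and 40.2% at 0h and 76.3% (69.7 to 82.1), 81.9% (71.1 to 90.0) and 56.5% (48.5 to 64.3) at 12 hours. The mean was 42.8% ± 4.45 at 0h and 71.6% ± 13.3 at 12 hours (SD, n = 3 libraries) without overlap, at p = 0.1 in an exact permutation test, two-sided, the smallest that 3 against 3 allows (0.2 adjusted over 4 such tests). In WT blood it was 44.2% ± 3.43 at 0h and 56.9% ± 6.52 at 12 hours, also without overlap (n = 3, exact permutation p = 0.1). The means of αD KO blood were 44.1% ± 6.03 and 53.6% ± 9.76 (exact permutation p = 0.3, n = 3), and in αD KO lung 52.9% ± 9.10 and 49.4% ± 7.29 (exact permutation p = 0.6, n = 3), with overlap in both. Without the 3 αD KO lung libraries away from their time label, the shares of αD KO lung were 42.6% and 56.1% at 0h and 56.5% (34.5 to 76.8) in the library left at 12 hours. The share was tested after its values were seen. Each n of 3 takes libraries 1a and 1b of the same sample as separate, and the share was not tested with both files summed.

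**Figure D4:**
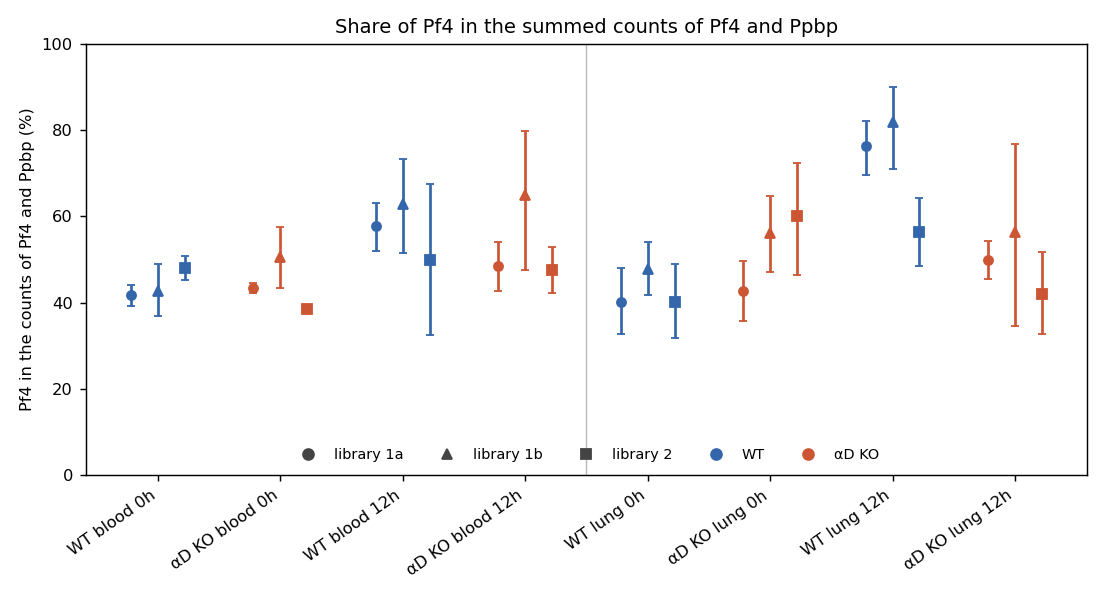
Share of Pf4 in the summed counts of Pf4 and Ppbp (percent) in each of the 24 libraries, with 95% exact binomial intervals. The libraries 1a and 1b of WT lung at 12 hours, at 76.3% and 81.9%, are the highest, and the blood libraries at 0h lie between 38.5% and 50.5%.

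A list of 40 other genes known from platelets and megakaryocytes, chosen with earlier results of these data known, was followed alongside. At 12 hours against 0h, averaged over tissue and genotype, 16 of the 40 fell and 6 rose in edgeR, beside 7.72% of all genes called, and the median of the list was −1.08 beside −0.513 for all genes. Among those that fell, Mylk, the myosin light chain kinase, changed by −1.92 ± 0.30 (adjusted p = 0.000411) and Clec1b, the receptor for podoplanin, by −2.31 ± 0.36 (adjusted p = 0.000457). Cd226, an adhesion receptor, changed by −2.24 ± 0.49 (adjusted p = 0.0046), Cavin2, a protein of caveolae, by −2.18 ± 0.49 (adjusted p = 0.00556) and Tbxas1, the thromboxane synthase, by −1.39 ± 0.32 (adjusted p = 0.00671). Clec1b was at 11.4, 12.2 and 12.1 CPM in WT blood at 0h and at 2.51, 1.16 and 1.25 CPM at 12 hours. Those that rose included Tmem40, at 1.33 ± 0.23 (adjusted p = 0.000811), Thbs1, which encodes thrombospondin 1, at 3.14 ± 0.72 (adjusted p = 0.00608), and Stx11, a syntaxin of granule release, at 1.05 ± 0.24 (adjusted p = 0.00612). Selp, which encodes P-selectin, rose by 1.08 ± 0.26 (adjusted p = 0.00904) and P2rx1, a receptor for ATP, by 1.17 ± 0.34 (adjusted p = 0.0254). Under total-count scaling 20 were called and 1 of these was higher, beside 10.7% of all genes. Without αD KO blood libraries 1a and 2 at 0h, 9 were called and 6 of these were higher, beside 5.29% of all genes.

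Some genes of the list are also known from leukocytes. Its highest levels per length were those of Cd9 (median 314 CPM per kb), Bin2 (205), Nfe2 (162), Stx11 (116) and Rgs18 (48.8), against 8.33 CPM per kb for Pf4. In WT blood 11 of the 35 genes tested fell and 5 rose, beside 13.5% of all genes called, and in αD KO blood 17 of 37 fell and 2 rose, beside 8.75%. With the replicate block 20 were called in WT blood, 5 of them higher (18.4% of all genes), and 22 in αD KO blood, 2 of them higher (10.7%). Between lung and blood 4 of the 40 were called (1.6% of all genes), and 8 by DESeq2 (4.31%), 15 by voom (11.5%) and 7 with the replicate block (3.3%). Nrgn, at −2.13 (edgeR, adjusted p = 0.0232), and P2rx1, at −1.34 (adjusted p = 0.043), were lower in lung, while Sparc, at 5.06 (adjusted p = 0.000825), and Cavin2, at 2.72 (adjusted p = 0.00544), were higher. No gene of the list was called between the genotypes averaged over tissue and time in edgeR, where 8 had an unadjusted p under 0.05, or in DESeq2, whereas voom called 15, all higher in αD KO, beside 15.2% of all genes.

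The libraries αD KO blood 1a and 2 at 0h also held the 2 highest values of 19 of the 40 genes of the list, beside 0.752% of the 27145 genes tested. The 19 included Gp1ba, Gp5, Gp6, Itgb3, Clec1b and Vwf. Of the marker lists of other cells, 0 of 10 neutrophil genes, 0 of 11 erythroid genes, 0 of 6 B cell genes and 0 of 7 T and NK cell genes had this pattern. It was shown by 3 of 12 monocyte and macrophage genes, C1qa, C1qb and C1qc, the chains of complement C1q. The summed B cell markers were at 548, 316 and 1260 CPM and the erythroid markers at 1890, 6710 and 9410 CPM in αD KO blood libraries 1a, 1b and 2 at 0h. The summed T and NK cell markers were at 27.2, 12.6 and 273 CPM there and at 6.98 to 29.0 CPM in the other groups. The neutrophil markers were at 61300, 35700 and 59000 CPM. The part of other cells in the levels of the platelet transcripts was not tested.

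Markers of other cells and of neutrophils also differed with time. The summed B cell markers had a median of 694 CPM in WT blood at 0h (263 to 1200) and of 50.6 CPM at 12 hours (40.4 to 227), and in αD KO blood of 548 CPM (316 to 1260) and 64.3 CPM (37.1 to 134). The neutrophil markers were at 29700 to 50200 CPM in WT blood at 0h and at 117000 to 214000 CPM at 12 hours. Those of αD KO blood were at 35700 to 61300 CPM at 0h and at 123000 to 154000 CPM at 12 hours. S100a8 and S100a9 made up most of these sums at 12 hours, and the members of the list did not all go the same way. In WT blood 6 of the 10 rose (Ly6g, S100a8, S100a9, Mmp8, Retnlg and Itgam) and 2 fell in edgeR, beside 13.5% of all genes called. Csf3r, the receptor for G-CSF, changed by −2.58 ± 0.51 (adjusted p = 0.0182) and Cxcr4, the receptor for CXCL12, by −2.55 ± 0.38 (adjusted p = 0.00705). In αD KO blood 4 rose (S100a8, S100a9, Mmp8 and Retnlg) and the same 2 fell, Csf3r by 2.37 and Cxcr4 by 2.03 on the log2 scale, beside 8.75% of all genes. The erythroid markers overlapped between the times in both, at 263 to 3940 CPM and 394 to 2490 CPM in WT blood and at 1890 to 9410 CPM and 34.4 to 5980 CPM in αD KO blood. The monocyte and macrophage markers overlapped in WT blood (560 to 1570 and 610 to 1210 CPM) and in αD KO blood (771 to 1960 and 637 to 787 CPM). Gene by gene in edgeR, 6 of 11 of them fell in αD KO blood, beside 8.75% of all genes called (Csf1r, Adgre1, Siglecf, Cd68, C1qa and C1qc) and their median log2 fold change was −4.03, beside −3.94 for the 7 platelet transcripts. Of the T and NK cell genes 2 of 7 fell there (Cd4 and Ncr1, median −4.78), of the B cell genes 2 of 6 (Ms4a1 and Ighm, median −3.62) and of the erythroid genes 2 of 10 (median −1.94). In WT blood, where 13.5% of all genes were called, 3 of 10 monocyte and macrophage genes fell (Csf1r, Ccr2 and Siglecf), Ly6c2 rose, and the median was −1.28, beside −3.06 for the platelet transcripts. There 1 of 6 B cell genes fell (Ighm, median −0.65), and no T and NK cell gene (median −1.53) or erythroid gene (median −0.89) was called in edgeR, with 2 of 4 and 1 of 10 at an unadjusted p under 0.05. The erythroid gene Car1 and the lung epithelial gene Sftpc, named here for their values, were at 0 in all 3 libraries of αD KO blood at 12 hours, and no marker of the lists was at 0 throughout another group. Lung epithelial and endothelial markers were at 42.7 to 842 CPM in lung and at 7.97 to 313 CPM in blood. Their part in the differences of the platelet transcripts was not tested.

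**Figure D5:**
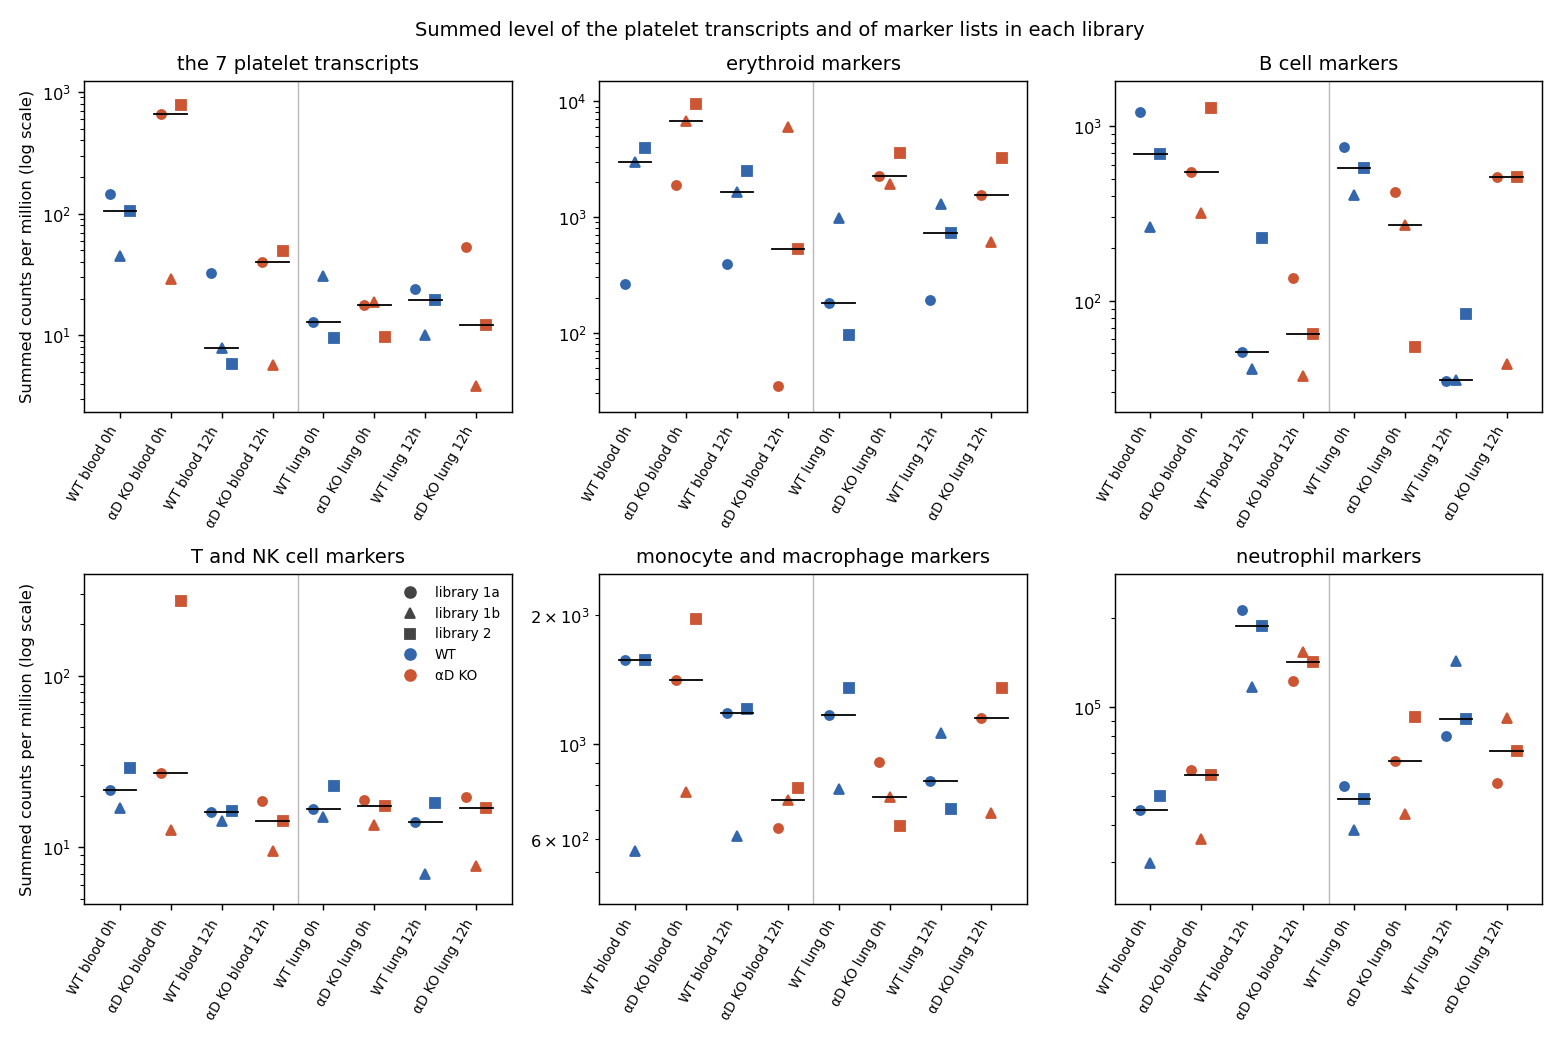
Summed CPM (log axis) of the 7 platelet transcripts and of marker lists of erythroid, B, T and NK, monocyte and macrophage, and neutrophil cells in the 24 libraries, with the group median as a bar. The platelet sum of αD KO blood libraries 1a and 2 at 0h, at 663 and 785 CPM, stands apart from the other 22 libraries.

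Among the 27138 other genes tested, those most like the mean log2 level of the 7 over the 24 libraries were named by Spearman's rho, as a description. The libraries share tissue, time and depth. The 10 closest included Nrgn and Ctla2a (rho 0.936 each), Mpig6b (0.927), Alox12 (0.9), Clu (0.883), Tsc22d1 (0.875), Ctla2b (0.873), Gp5 (0.857) and Gng11 (0.853). Of those named, Nrgn, Ctla2a, Alox12, Gp5 and Gng11 are in the list of 40, and 4 are not. Taking deviations from the group means in place of levels, all 10 were again among the 10 closest. By Pearson's r, 9 were, and Mpig6b was at rank 12. Clu, which encodes clusterin, was at 33.5, 7.42 and 22.3 CPM in WT blood at 0h and at 145, 3.74 and 169 CPM in αD KO blood at 0h, the pattern of the chemokines. Tsc22d1 was at 61.1, 14.5 and 32.1 CPM and at 197, 11.9 and 276 CPM in the same groups. Among the 7 themselves, rho was 0.624 to 0.963 over 21 pairs (median 0.855), and 0.302 to 0.936 (median 0.68) over the 18 libraries other than blood at 0h.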

How the data were processed

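RNA of sorted neutrophils was sequenced from 16 samples in 8 groups, in 24 libraries. The authors amplified full-length cDNA (SMART-Seq v4), prepared Nextera XT libraries and sequenced paired ends. The submitters' processing notes name Trimmomatic 0.36, STAR 2.5.2b and the build GRCm38. The authors deposited raw counts per gene of unique reads within exons, whole numbers without normalization, and the strand setting is not given in the sources used here. Of the 49315 genes, 48970 were matched to a symbol, and 44823 had the same position in the GRCm38 annotation.

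Counts were tested in R 4.3.3 with edgeR 4.0.16 (TMM, filterByExpr, quasi-likelihood F test, two-sided, Benjamini-Hochberg over all genes tested). Averaged contrasts and interactions used all 24 libraries, and the 12 comparisons of 2 groups used 6 libraries each. A gene was called at an adjusted p under 0.05 and a log2 fold change beyond 1. Levels in CPM were scaled by TMM over the 24 libraries. The labels do not state that libraries came from separate animals, so p-values may measure only the spread between these libraries. Tables were made in Python 3.11.15 (scipy 1.17.1, numpy 2.4.6, pandas 2.3.3). The scripts were tested on simulated data.

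Alternatives were DESeq2 1.42.0, limma 3.58.1 voom with quality weights, a minimum of 10 counts per library, no low-count filter, RLE factors, the sum of both files of sample 1, libraries 1a and 2 alone, the adjusted p alone, a fit of all 8 groups, each library left out, the fits without the 3 αD KO lung libraries away from their time label, and the library number as a replicate block. Total-count scaling and the fits without αD KO blood libraries 1a and 2 at 0h were chosen after seeing the data. Libraries of the same number deviated together (correlation across genes above 0.1 for every number) in 10 of the 12 comparisons of 2 groups. In the other two the lowest was 0.0885 (αD KO lung against blood at 0h) and 8.89e-05 (αD KO against WT lung at 0h). The labels state no pairing. The blocked count is given where it changed the number called of the 7 transcripts or of the 40 platelet genes. Counts at an unadjusted p under 0.05 come from fits without the block.

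The 7 transcripts and the gene lists were chosen with earlier results of these data known. Genes named were the 7, the genes of the list of 40 called in an averaged comparison (at most 5 per direction by smallest p), the 5 highest per length in it, the 10 closest by rho (of which 1 is not reported here), and Itgad and neutrophil markers as checks. Clu and Tsc22d1 were picked among the closest for their values, and C1qa, C1qb and C1qc after theirs were seen. Other experiments of the study were not analysed here.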

Additional observations from a re-analysis of the deposited data

How the results depend on the processing

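The number of the 7 transcripts called moved with the processing. The percentage in brackets, given only beside counts above 0, is that of all genes called in the same fit. For lung against blood (2 called, 1.6%) it was 1 with RLE normalization (1.75%) or total-count scaling (1.53%), 7 with DESeq2 (4.31%), with the files of sample 1 summed (2.26%) or with libraries 1a and 2 alone (7.36%), 6 with voom (11.5%) and 4 with the replicate block (3.3%). It was 0 without the 3 αD KO lung libraries away from their time label or without αD KO blood libraries 1a and 2 at 0h. For 12 hours against 0h (5 called, 7.72%) it was 2, of 2 tested, with at least 10 counts in every library (15.5%), and 0 without αD KO blood libraries 1a and 2 at 0h. For αD KO against WT it was 5 with voom (15.2%), and for tissue by time 6 with DESeq2 (4.33%) and 7 with voom (10.1%) or libraries 1a and 2 alone (4.62%). In WT lung against blood at 0h it was 2 with DESeq2 (0.317%) and 3 with voom (0.1%), and in αD KO 7 with DESeq2 (0.639%) or no filter (0.144%). In WT blood over time (3 called, 13.5%) it was 7 with DESeq2 (22.8%) or voom (24.7%), 6 with total-count scaling (14.7%) or the replicate block (18.4%), 5 with libraries 1a and 2 alone (23.1%) and 1 in the single fit (4.12%). In αD KO blood over time (2 called, 8.75%) it was 1 with RLE normalization (8.69%), 5 with total-count scaling (11.2%), 6 with the replicate block (10.7%), 7 with DESeq2 (12.3%), no filter (4.05%), summed files (3.84%) or libraries 1a and 2 alone (11%), and 0 in the single fit or without αD KO blood libraries 1a and 2 at 0h. In WT lung over time it was 2 with voom (35.1%) or libraries 1a and 2 alone (37.2%). The replicate block changed no other count by over 1.5 times. The cause of these moves was not tested, apart from the fewer libraries or genes that some settings hold.

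Leaving out 1 library at a time gave 0 to 7 called for lung against blood, 0 to 6 for 12 hours against 0h, 0 to 1 for tissue by time (1 without αD KO blood 0h library 1b), 0 to 6 for αD KO lung against blood at 0h (6 without blood 0h library 1b), 0 to 5 for WT blood and 0 to 7 for αD KO blood over time. In these 6, αD KO against WT averaged, WT lung against blood at 0h and αD KO against WT blood at 0h (9 in all), 17 of 1535 alternative values changed sign, all without αD KO blood libraries 1a and 2 at 0h. For αD KO against WT averaged, Pf4 was then −0.20, Gp9 −0.081, Gp1bb −0.85, Itga2b −0.24 and Tubb1 −0.10. For αD KO lung against blood at 0h, Gp1bb was 0.38, and for αD KO blood over time Ppbp was 0.24, Pf4 0.16, Gp9 0.25 and Gp1bb 0.41. For αD KO against WT blood at 0h, Ppbp was −1.66, Pf4 −1.31, Gp9 −1.30, Gp1bb −2.89, Itga2b −1.96, Treml1 −0.95 and Tubb1 −1.32. In the other 9 comparisons, where edgeR called none of the 7, 144 of 1232 alternative values changed sign, 10 of them without αD KO blood libraries 1a and 2 at 0h and 18 without the 3 αD KO lung libraries away from their time label. The latter include all 7 transcripts in αD KO lung over time (then −3.00 to −0.89) and 5 of 6 in αD KO against WT lung at 12 hours (then −3.21 to −0.85).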
